A study of Mus musculus with 3 samples.

Results

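The aryl hydrocarbon receptor (AhR) and antioxidant genes were followed in NIH3T3 cells, a mouse fibroblast line established from embryos. The set holds 10 genes of the 15554 gene rows measured. They are *Ahr*, *Aldh3a1*, *Cyp1b1* and *Tiparp* on the side of the receptor, *Nqo1*, which belongs to both sides, and *Hmox1*, *Gclc*, *Gclm*, *Txnrd1* and *Srxn1* on the antioxidant side. The genes were chosen by their known roles and by their FPKM in these same libraries, so the differences given below for them are a description and no test was run on them. Each gene was found by its symbol in a single row. The cells of all groups first stood in serum-free medium for 24 h. The medium was then changed, and they stood in serum-free medium for another 24 h with no stimulation (CTRL), 100 ng/mL GDF15 or 4 ng/mL TGF-β. No other agent or allele is named for any group. RNA of 3 samples per treatment was pooled into 1 library. With 1 library per treatment there is no replicate error, no p-value is given, and no difference has a replicate check.

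AhR is a transcription factor that lies in the cytosol with HSP90 and p23 (*Ptges3*). When it binds a ligand such as dioxin or a product of tryptophan, it enters the nucleus, pairs with ARNT and binds DNA at a GCGTG core. NRF2 (*Nfe2l2*) is held back by KEAP1 and CUL3 and, when electrophiles or oxidants modify KEAP1, it binds antioxidant response elements with a small MAF protein. Both factors drive detoxifying enzymes, and *Nqo1* and *Aldh3a1* belong to the classical AhR gene battery. AhR is known to raise *Tiparp*, whose product in turn represses AhR.

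Expression is given as FPKM, which is scaled to transcript length and to mapped fragments, so levels may be compared between genes. The change of a gene is the difference of log2(FPKM + 1) between libraries, and the percentages and ratios are of FPKM itself. A change was counted as past 1.5-fold beyond 0.585 and as past 2-fold beyond 1 on this log2 scale. The background is the 9226 rows whose mean FPKM over the 3 libraries reached 1, and these include 9 of the 10 genes. *Ahr* was below this minimum. Gene coordinates are those of GENCODE M21 on GRCm38. Depth, estimated from the steps of low FPKM values in units of 1e6 fragments, was 16.65 for CTRL, 19.55 after GDF15 and 16.3 after TGF-β. The 95% intervals given with ratios are exact binomial intervals of fragments estimated from this depth and cover counting error only. The fibroblast markers *Col1a1*, *Col1a2*, *Vim*, *Pdgfra*, *Pdgfrb*, *Thy1*, *S100a4* and *Dcn* were all present, from 34.7 to 3817 FPKM. Markers of epithelium (*Cdh1*, *Epcam*, *Krt8* and *Krt18*) reached at most 0.685 FPKM, of endothelium (*Cdh5*, *Kdr*, *Pecam1* and *Tek*) 0.189 and of hepatocytes (*Alb*, *Apoa1*, *Serpina1a* and *Ttr*) 0.117. Of the leukocyte markers, *Cd14* lay between 4.99 and 5.66 and *Cd68* between 1.14 and 1.67, *Ptprc* was at most 0.148 and *Emr1* was listed at 0.

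The changes followed transcript length, most of all in the GDF15 library. Spearman's rho between length and change was 0.48 under GDF15 and 0.24 under TGF-β across 9192 genes, which share the libraries and are not independent replicates. With GDF15, the median change was -0.25 for transcripts over 800 and up to 1200 bases and 0.10 for those over 5400 and up to 8000 bases. The corresponding medians by TGF-β were -0.18 and 0.01. The transcripts of *Nqo1* (1553 bases), *Hmox1* (1569 bases) and *Aldh3a1* (1729 bases) are the shortest of the 10, and those of *Gclm* (5589 bases), *Ahr* (5548 bases) and *Cyp1b1* (5128 bases) the longest. Changes after removal of the running median by length are therefore given for *Aldh3a1*, *Ahr*, *Cyp1b1*, *Gclm*, *Nqo1*, *Srxn1* and *Hmox1* and for the lists. The part of this trend in the results was otherwise not tested.

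**Figure D1:**
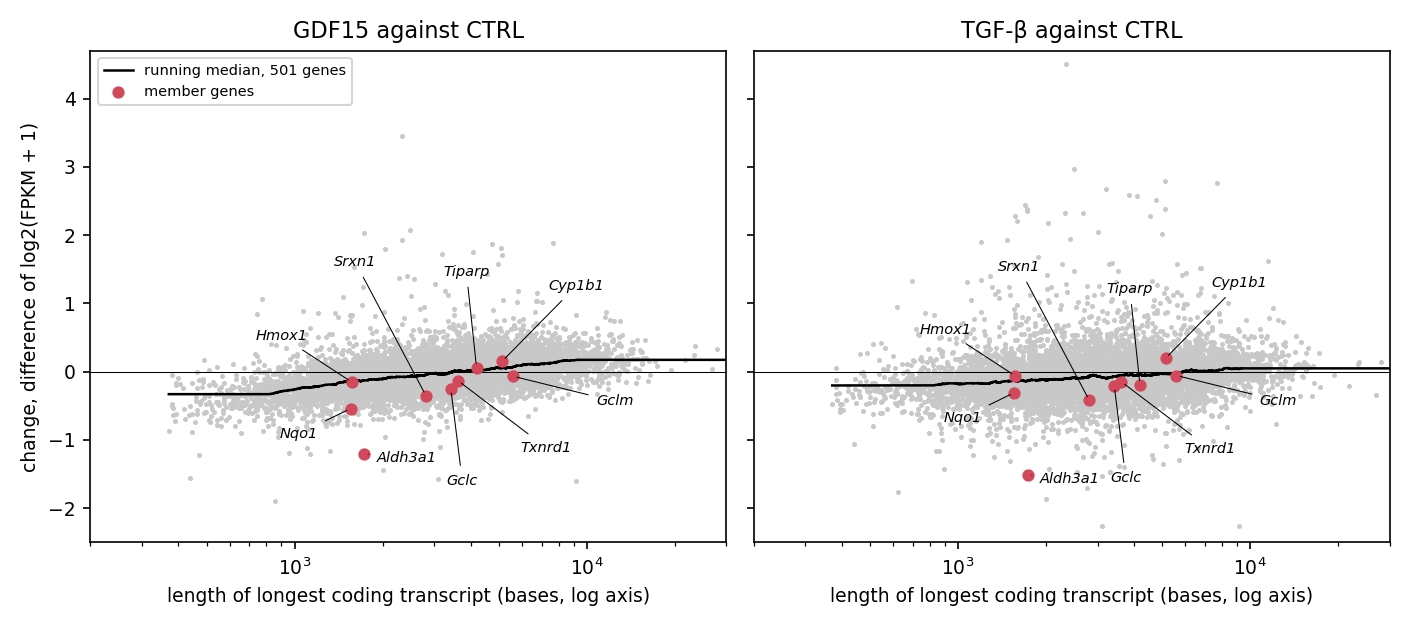
Change (difference of log2(FPKM + 1), vertical axis) against transcript length in bases (longest coding transcript, log axis) for GDF15 (left) and TGF-β (right) against CTRL. Grey points are genes whose mean FPKM reached 1, the black line is the running median of genes of similar length, and red points are the 9 genes of the set over that minimum. *Aldh3a1* lies far below the line in both panels, at -1.20 and -1.51, and *Hmox1* lies close to it.

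The promoters show where the letters of both response elements occur. The RefSeq table (GRCm38.p6) gave 8 windows for 6 of the genes, and the 250 bases before the start were searched on both strands. *Ahr*, *Aldh3a1*, *Hmox1* and *Gclc* were not searched. The windows below are those of the *Cyp1b1*, *Tiparp*, *Gclm*, *Txnrd1* and *Srxn1* genes, shown because each holds a match. Of the 3 *Txnrd1* windows, all with the AhR core, the one that also holds the antioxidant element is shown. Capitals mark GCGTG, the AhR core, and TGACNNNGC, the core of the antioxidant response element. Only these letters were searched, and other forms of either element were not. Where a match lies on the opposite strand, the capitals show its reverse complement. No match of one overlaps a match of the other. The windows are chr17:79715062-79715311 (minus strand), chr3:65528197-65528446, chr3:122245307-122245556, chr10:82858956-82859205 and chr2:152105274-152105523 (all plus strand), in this order.
Cyp1b1: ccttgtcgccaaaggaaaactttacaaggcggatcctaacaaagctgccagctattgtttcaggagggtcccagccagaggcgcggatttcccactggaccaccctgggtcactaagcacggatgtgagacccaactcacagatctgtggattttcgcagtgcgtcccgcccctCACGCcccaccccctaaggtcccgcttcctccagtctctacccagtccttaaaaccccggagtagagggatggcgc
Tiparp: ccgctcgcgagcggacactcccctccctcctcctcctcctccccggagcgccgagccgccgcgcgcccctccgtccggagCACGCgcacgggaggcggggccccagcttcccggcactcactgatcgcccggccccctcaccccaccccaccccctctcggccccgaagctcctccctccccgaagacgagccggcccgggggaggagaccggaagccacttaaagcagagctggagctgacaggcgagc
Gclm: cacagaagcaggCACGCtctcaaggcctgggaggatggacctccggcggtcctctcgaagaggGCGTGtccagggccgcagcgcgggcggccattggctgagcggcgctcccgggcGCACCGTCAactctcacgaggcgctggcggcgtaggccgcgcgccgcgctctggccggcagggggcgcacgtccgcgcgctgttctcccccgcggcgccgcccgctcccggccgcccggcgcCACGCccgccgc
Txnrd1: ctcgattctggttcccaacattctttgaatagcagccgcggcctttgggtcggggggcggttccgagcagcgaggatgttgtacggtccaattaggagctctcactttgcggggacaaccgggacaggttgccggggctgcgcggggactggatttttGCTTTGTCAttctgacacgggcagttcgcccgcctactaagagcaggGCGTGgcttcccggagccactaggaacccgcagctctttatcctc
Srxn1: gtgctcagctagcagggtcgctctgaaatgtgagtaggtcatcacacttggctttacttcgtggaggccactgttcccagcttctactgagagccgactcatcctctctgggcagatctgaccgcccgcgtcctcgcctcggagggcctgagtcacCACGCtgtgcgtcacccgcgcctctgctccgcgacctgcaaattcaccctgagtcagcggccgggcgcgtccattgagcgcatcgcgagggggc

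The AhR core was found in 7 of the 8 windows, belonging to 5 of the 6 genes. It was found in 28.2% of all 32851 windows and in 46.8% of the 9023 windows of genes over the minimum FPKM. The only gene of the 6 without it was *Nqo1*, whose window holds neither set of letters. *Gclm* holds the AhR core at 3 places, at positions -238, -187 and -12 from the start. The core of the antioxidant response element was found in the windows of *Gclm* and of 1 of 3 *Txnrd1* starts, at positions -134 and -92, against 10.2% of all windows and 11.7% of those of genes over the minimum. In *Srxn1* it lies at position 29 after the start, outside the stretch shown. A match is a string of letters and not a measured site.

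Of the 10 genes, *Aldh3a1* had the largest difference in both comparisons. It encodes an aldehyde dehydrogenase of the class that oxidizes aromatic and lipid aldehydes (chromosome 11, 61207537 to 61218421, plus strand). Its FPKM was 160 for CTRL, 69.3 after GDF15 and 55.7 after TGF-β. The CTRL library is the highest and the TGF-β library the lowest, and in every library *Aldh3a1* was the most abundant of the 10 genes. In a bulk library, fewer expressing cells and less RNA per cell cannot be told apart. The ratio to CTRL was 0.432 by GDF15 (interval 0.411 to 0.454) and 0.347 by TGF-β (interval 0.328 to 0.368), from an estimated 4618, 2342 and 1569 fragments. The change was -1.20 and -1.51 on the log2 scale, the 7th lowest of the 9226 rows in each comparison. After removal of the length trend it was -1.07 and -1.38. In CTRL it lay above 96.8% of the background rows, and in TGF-β above 89.8%.

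**Figure D2:**
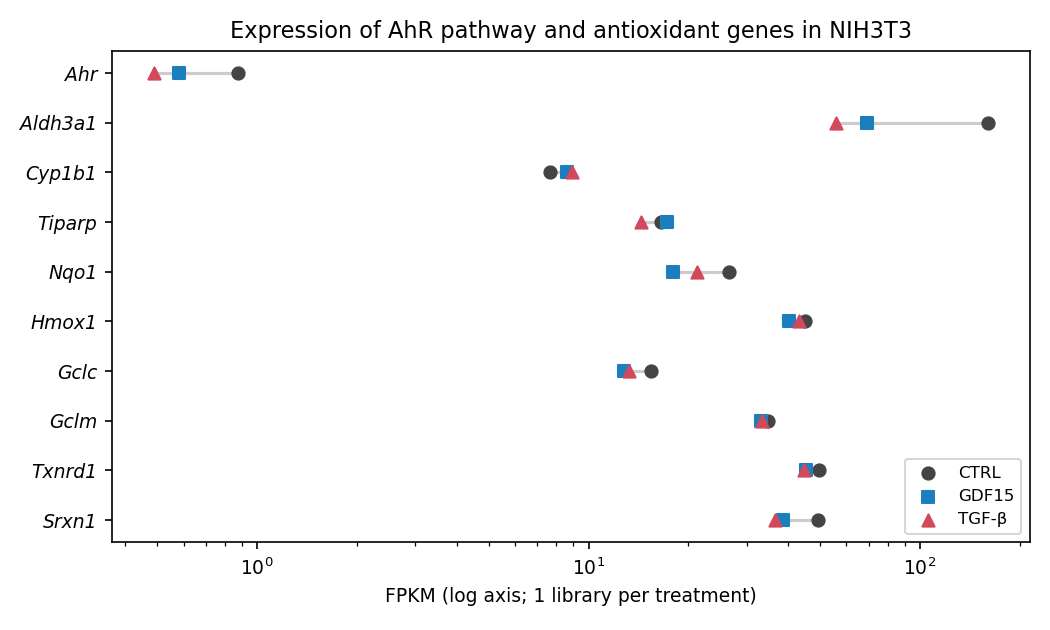
FPKM (log axis) of the 10 genes in the CTRL (grey circle), GDF15 (blue square) and TGF-β (red triangle) libraries, 1 library per treatment. *Aldh3a1* spans 160 to 55.7 FPKM, while the points of *Gclm*, *Hmox1* and *Txnrd1* nearly coincide.

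Within the 10 genes, 1 was lower by more than 1.5-fold with GDF15, where the background is 1.55%, and 1 with TGF-β, where it is 3.06%. In both cases this was *Aldh3a1*. It was also the only gene lower by more than 2-fold, with backgrounds of 0.13% for GDF15 and 0.553% for TGF-β. None of the 10 was higher by more than 1.5-fold, against 1.27% and 2.54% of the background rows. Because the genes were picked with these values known, nothing is read from these shares. After removal of the length trend 43 background rows were lower and 112 higher by more than 1.5-fold with GDF15, beside 143 and 117 before, and 186 and 290 with TGF-β, beside 282 and 234. The median change of the 10 was -0.20 under GDF15 and -0.20 under TGF-β, beside -0.03 and -0.07 over the background. By GDF15, 8 of the 10 were below CTRL, as were 5129 of the 9226 background rows, and by TGF-β 9 of the 10 were, as were 5797 of the background rows. Both comparisons use the same CTRL library.

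The receptor itself had a low level of mRNA. *Ahr* (chromosome 12, 35497974 to 35535038, minus strand) had an FPKM of 0.878 for CTRL, 0.580 after GDF15 and 0.487 after TGF-β, the lowest of the 10 genes in each library. Only an estimated 81, 63 and 44 fragments stand behind these values. The ratio to CTRL was 0.661 by GDF15 (interval 0.469 to 0.932) and 0.555 by TGF-β (interval 0.375 to 0.811). On the log2(FPKM + 1) scale, which understates the change of so low a gene, these are -0.25 and -0.34, so that *Ahr* stayed within 1.5-fold on this scale although both ratios are past it. After removal of the length trend the changes of *Ahr* were -0.32 and -0.30. The lincRNA *Gm48236* on the opposite strand overlaps 618 bases of the gene, and whether counting used the strand is not given in the sources used here. Opposite-strand genes also overlap *Tiparp* (*4931440P22Rik*, 970 bases), *Gclm* (*Gm17494*, 14775 bases) and *Txnrd1* (*Gm38560*, 13276 bases, and *Gm47073*, 1393 bases).

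The partners of the receptor, apart from *Arnt2*, were far more abundant than *Ahr* and stayed within 1.5-fold. *Arnt*, its DNA-binding partner, was at 21.1, 22.1 and 19.8 FPKM in CTRL, GDF15 and TGF-β. The chaperone *Hsp90ab1* was at 708.5, 729 and 711, and *Hsp90aa1* at 72.6, 84.0 and 75.5. The p23 gene *Ptges3* was at 48.7, 57.0 and 58.7. *Arnt2*, a relative of *Arnt* best known from nervous tissue, rose with TGF-β, from 0.664 FPKM for CTRL to 0.823 after GDF15 and 1.83 after TGF-β. It was the only one of 6 genes of the complex past 1.5-fold by TGF-β, where 2.54% of the background rows were higher and 3.06% lower. None of the 6 passed by GDF15, beside 1.27% higher and 1.55% lower. *Arnt2* reached the minimum only through the TGF-β library, where it is high, so nothing is read from these counts. The median change of the 6 was 0.10 under GDF15 and 0.03 under TGF-β, and 0.07 and 0.12 without the length trend. *Ahrr*, the repressor of AhR, was listed at 0.0354 FPKM for CTRL, 0.0101 after GDF15 and 0 after TGF-β, too low to give a direction.

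As deposited, *Cyp1b1* and *Tiparp* did not show the order of libraries seen for *Aldh3a1*. *Cyp1b1*, a cytochrome P450 that oxidizes estrogens and polycyclic hydrocarbons (chromosome 17, 79701537 to 79715061, minus strand), was at 7.65 FPKM for CTRL, 8.62 after GDF15 and 8.93 after TGF-β. Both stimulated libraries lay above CTRL, with ratios of 1.13 (interval 1.02 to 1.25) and 1.17 (interval 1.05 to 1.296). The changes of 0.15 and 0.20 were 0.10 and 0.23 after removal of the length trend, and 0.03 and 0.19 after removal of the trends with length and GC content. *Tiparp*, a mono-ADP-ribosyltransferase that represses AhR (chromosome 3, 65528410 to 65555518, plus strand), was at 16.5 for CTRL, 17.3 after GDF15 and 14.4 after TGF-β. In the deposited values GDF15 was the highest and TGF-β the lowest library. Without the trends with length and GC content the change by GDF15 turned from 0.06 to -0.10. That by TGF-β went from -0.19 to -0.28, so that the order was then that of *Aldh3a1*. Its ratio was 1.05 by GDF15 (interval 0.967 to 1.13), within counting error of no difference, and 0.868 by TGF-β (interval 0.797 to 0.946). The classical AhR target *Cyp1a1* was listed at 0 in CTRL and at 0.0758 and 0.0695 FPKM in GDF15 and TGF-β, and *Cyp1a2* was listed at 0 in all 3.

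Outside the 10, a single further AhR target gene of the list was over the minimum. *Ugt1a6a*, which attaches glucuronic acid to phenols, fell with TGF-β and was at 17.6 FPKM for CTRL, 13.4 after GDF15 and 11.3 after TGF-β. Its change was -0.36 and -0.59, and -0.29 and -0.48 after removal of the length trend. It shares its last exons with other *Ugt1a* genes, between which reads can be split. Of the background rows, 1.55% were lower and 1.27% higher by more than 1.5-fold with GDF15, and 3.06% and 2.54% with TGF-β. Beside these shares, none of the 3 expressed genes that make or use kynurenine passed 1.5-fold, and nothing is read from this. Their most abundant, the formamidase *Afmid*, was at 2.26, 2.17 and 2.71 FPKM, and the median change of the 3 was -0.04 under GDF15 and 0.06 under TGF-β, and 0.04 and 0.17 without the length trend.

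*Nqo1*, the quinone reductase that both AhR and NRF2 control (chromosome 8, 107388225 to 107403206, minus strand), had the second largest change of the 10 with GDF15 on the log2(FPKM + 1) scale, whereas by ratio *Ahr* was further from CTRL. Its FPKM was 26.5 for CTRL, 17.9 after GDF15 and 21.2 after TGF-β. In contrast to *Aldh3a1*, the GDF15 library was the lowest. The ratio was 0.676 by GDF15 (interval 0.604 to 0.758) and 0.7998 by TGF-β (interval 0.713 to 0.897). The changes of -0.54 and -0.31 stayed short of 1.5-fold and became -0.40 and -0.18 after removal of the length trend. In TGF-β it was 18.3% above GDF15 (ratio interval 1.05 to 1.33).

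**Figure D3:**
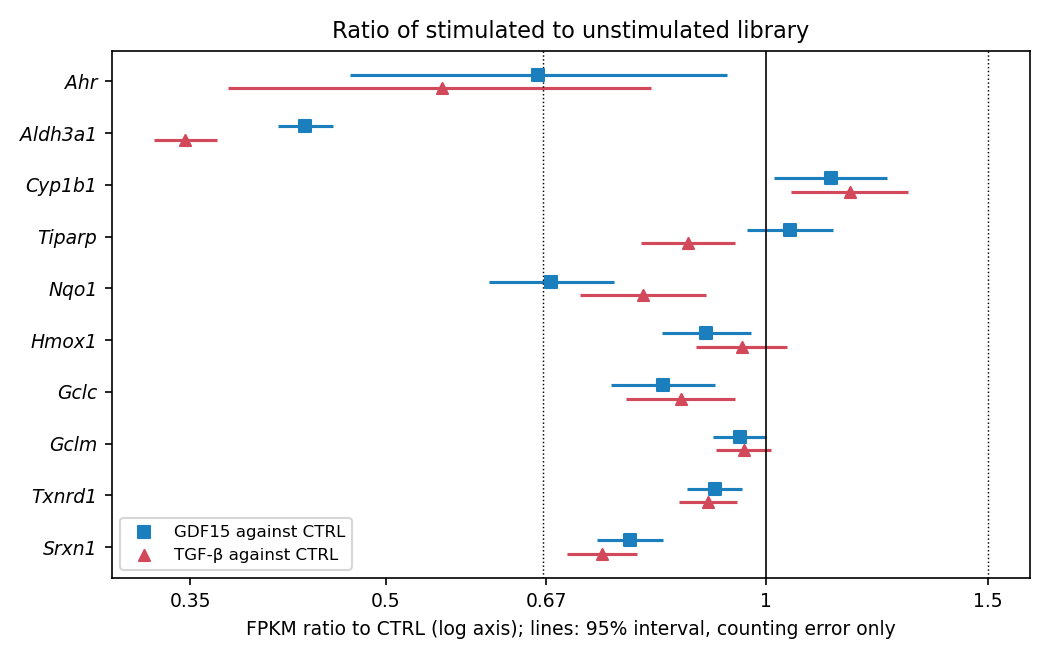
Ratio of the FPKM in GDF15 (blue squares) and TGF-β (red triangles) to that in CTRL (log axis), with 95% intervals that cover counting error only. Dotted lines mark a ratio of 1.5 in each direction, and of the 10 genes only *Aldh3a1* has both intervals beyond the lower line, at 0.432 and 0.347.

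Of 11 regulators of NRF2, 10 were over the minimum and none of these passed 1.5-fold. The background shares are 1.55% lower and 1.27% higher with GDF15, and 3.06% and 2.54% with TGF-β, so nothing is read from this. The NRF2 gene *Nfe2l2* was at 94.2 FPKM for CTRL, 80.3 after GDF15 and 70.4 after TGF-β, with changes of -0.23 and -0.41. Its relative *Nfe2l1* went the other way, at 68.5, 71.2 and 83.1. Of the proteins that degrade NRF2, *Keap1* was at 15.4, 16.4 and 13.9, *Cul3* at 35.2, 41.9 and 37.5, and *Rbx1* at 29.1, 23.8 and 29.4. The repressor *Bach1* was at 6.79, 7.48 and 7.02. Among the small MAF partners, *Mafg* was at 44.2, 36.9 and 40.2, *Mafk* at 11.5, 11.9 and 14.7, and *Maff* at 9.23, 8.66 and 12.4. *Sqstm1*, the p62 gene, was the most abundant at 303, 287 and 285. The median change of these 10 was -0.02 under GDF15 and 0.03 under TGF-β, and 0.02 and 0.09 without the length trend.

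The genes for glutathione synthesis differed little between libraries. *Gclc* encodes the catalytic subunit of glutamate-cysteine ligase, the enzyme of the first and limiting step (chromosome 9, 77754535 to 77794485, plus strand), and was at 15.4 FPKM for CTRL, 12.8 after GDF15 and 13.2 after TGF-β. Both stimulated libraries were below CTRL, with ratios of 0.829 (interval 0.754 to 0.912) and 0.856 (interval 0.776 to 0.946). *Gclm*, its modifier subunit (chromosome 3, 122245557 to 122270732, plus strand), was at 34.7, 33.1 and 33.4. These 3 values nearly coincide, and the ratios of 0.954 (interval 0.909 to 1.0002) and 0.961 (interval 0.914 to 1.01) do not differ from 1 beyond counting error. The changes of -0.07 and -0.06 were -0.13 and -0.02 after removal of the length trend. After removal of the trends with length and GC content they were -0.23 and -0.10. The pseudogene *Gm6061* lies within *Gclm* over 492 bases of the same strand. Of 8 other genes of glutathione synthesis, import and breakdown, *Chac1*, which cleaves glutathione, rose with TGF-β, with 6.92 FPKM for CTRL, 8.41 after GDF15 and 11.8 after TGF-β. The most abundant, the amino acid transporter subunit *Slc3a2*, was at 69.6, 67.2 and 70.7, and the median change of the 8 was -0.03 under GDF15 and 0.01 under TGF-β, and 0.04 and 0.07 without the length trend.

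*Srxn1* and *Txnrd1*, the thioredoxin branch, were similar in level and not in change. *Srxn1* encodes sulfiredoxin, which restores overoxidized peroxiredoxins (chromosome 2, 152105516 to 152111376, plus strand). It was at 49.3 FPKM for CTRL, 38.5 after GDF15 and 36.6 after TGF-β, so that both stimulated libraries lay below CTRL and close to each other. The ratio was 0.781 by GDF15 (interval 0.736 to 0.829) and 0.742 by TGF-β (interval 0.696 to 0.790), and the changes of -0.35 and -0.42 were -0.31 and -0.36 without the length trend. *Txnrd1*, the cytosolic thioredoxin reductase (chromosome 10, 82833951 to 82897712, plus strand), was at 49.7, 45.2 and 44.7. Its ratios were 0.911 (interval 0.867 to 0.958) and 0.900 (interval 0.854 to 0.949). *Eid3*, a gene on the same strand, lies within *Txnrd1*.

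Of 11 other thioredoxin and peroxiredoxin genes, 1 was lower by more than 1.5-fold with TGF-β (background 3.06%) and none with GDF15 (background 1.55%). None was higher, beside backgrounds of 2.54% with TGF-β and 1.27% with GDF15. *Txnip*, which binds and inhibits thioredoxin, fell with TGF-β, with an FPKM of 149 for CTRL, 126 after GDF15 and 88.1 after TGF-β. *Prdx1*, a peroxiredoxin with the highest mean FPKM of the list, was at 427, 334 and 338, the last just below thioredoxin itself (*Txn1*, 343 after TGF-β). The median change was -0.22 under GDF15 and -0.11 under TGF-β, and -0.09 and 0 after removal of the length trend. Among 8 superoxide and peroxide enzymes none passed 1.5-fold in either comparison, and beside the same background shares nothing is read from this. Their most abundant, the glutathione peroxidase *Gpx1*, was at 224, 209.6 and 228. The median change of the 8 was -0.09 and 0.01 and turned to 0.06 and 0.14 without the length trend, as the change of *Gpx1* by GDF15 turned from -0.10 to 0.13. Of the 7 genes of NADPH supply, the isocitrate dehydrogenase *Idh1* rose with TGF-β (33.97 FPKM for CTRL, 45.0 after GDF15 and 54.6 after TGF-β), *Pgd* was the most abundant at 104, 95.8 and 115, and the median change was -0.18 and -0.0012, and -0.05 and 0.15 without the length trend.

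*Hmox1* encodes heme oxygenase 1, which breaks heme into iron, carbon monoxide and biliverdin (chromosome 8, 75093621 to 75100589, plus strand). Its FPKM was 45.0 for CTRL, 40.4 after GDF15 and 43.0 after TGF-β. The 3 libraries lay close together, and the ratio was 0.897 by GDF15 (interval 0.828 to 0.973) and 0.957 by TGF-β (interval 0.881 to 1.04). After removal of the length trend the changes were -0.01 and 0.07.

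The ferritin genes, which store iron and belong to the NRF2 response, were lower in the stimulated libraries. The heavy chain gene *Fth1* was at 4031 FPKM for CTRL, 2574 after GDF15 and 2082 after TGF-β, and fell with both stimuli, by 0.65 and 0.95 on the log2 scale. The light chain gene *Ftl1* was at 1653, 1088 and 1134, with changes of -0.60 and -0.54, the first past 1.5-fold. Both have many processed pseudogenes with which reads may be shared, and both transcripts are short. After removal of the length trend the changes by GDF15 were -0.50 and -0.33, short of 1.5-fold, and the change of *Fth1* by TGF-β was -0.81. *Slc40a1*, the iron exporter ferroportin, rose instead, from 2.67 FPKM for CTRL to 4.79 after GDF15 and 6.65 after TGF-β, and stayed past 1.5-fold without the length trend (0.68 and 1.14). Of the 9 genes of heme and iron beside *Hmox1*, 2 (0 without the length trend) were thus lower and 1 higher with GDF15, and 1 lower and 1 higher with TGF-β, beside the same background of 1.55% and 1.27%, and 3.06% and 2.54%, with a median change of -0.22 and -0.24, and -0.15 and -0.17 without the length trend.

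The glutathione transferases, which couple glutathione to electrophiles and include many targets of NRF2, were the list with the lowest median change by GDF15 among those with at least 3 expressed genes. Of its 11 genes over the minimum, 3 were lower by more than 1.5-fold with GDF15 (background 1.55%) and 4 with TGF-β (background 3.06%), and none was higher. The median change was -0.39 under GDF15 and -0.42 under TGF-β. *Gstm1* was at 223 FPKM for CTRL, 149 after GDF15 and 119 after TGF-β, just short of 1.5-fold by GDF15 (-0.58) and past it by TGF-β (-0.90). *Gsta4*, which acts on lipid aldehydes, fell from 47.7 to 29.99 and 26.1. *Gstp1* and *Gstp2*, near-identical neighbours between which reads can be split, were summed, and the sum fell from 614 to 380.4 and 396, by 0.69 and 0.63. Counted as 1 gene, they leave 2 lower with GDF15 and 3 with TGF-β. The median transcript length of this list is 1097 bases. After removal of the length trend 0 of the 11 passed 1.5-fold with GDF15 and 2 with TGF-β (*Gstm1* at -0.73 and *Gsta4* at -0.67), where 0.468% and 2.02% of all rows were lower, and the median change was -0.17 and -0.27.

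Among 20 other aldehyde and quinone enzymes, the relatives of *Aldh3a1* and *Nqo1*, changes went in both directions. *Aldh3b1*, another member of the *Aldh3* family, fell with TGF-β, with an FPKM of 15.9 for CTRL, 10.6 after GDF15 and 9.46 after TGF-β, a change of -0.69 that was -0.57, short of 1.5-fold, without the length trend. Mitochondrial *Aldh1l2* of folate metabolism rose from 7.25 to 13.1 and 21.5, and *Aldh18a1* of proline synthesis from 16.4 to 25.6 and 31.6. The carbonyl reductase *Cbr2* rose with TGF-β, with 13.3, 15.7 and 28.4. *Akr1a1*, an aldehyde reductase and the most abundant of the list, was at 395, 379 and 383. In all, 0 of the 20 were lower and 2 higher by more than 1.5-fold with GDF15, and 1 was lower and 3 higher with TGF-β, beside 1.55% and 1.27% of the background with GDF15 and 3.06% and 2.54% with TGF-β, with a median change of -0.14 and -0.17, and -0.11 and -0.12 without the length trend.

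**Figure D4:**
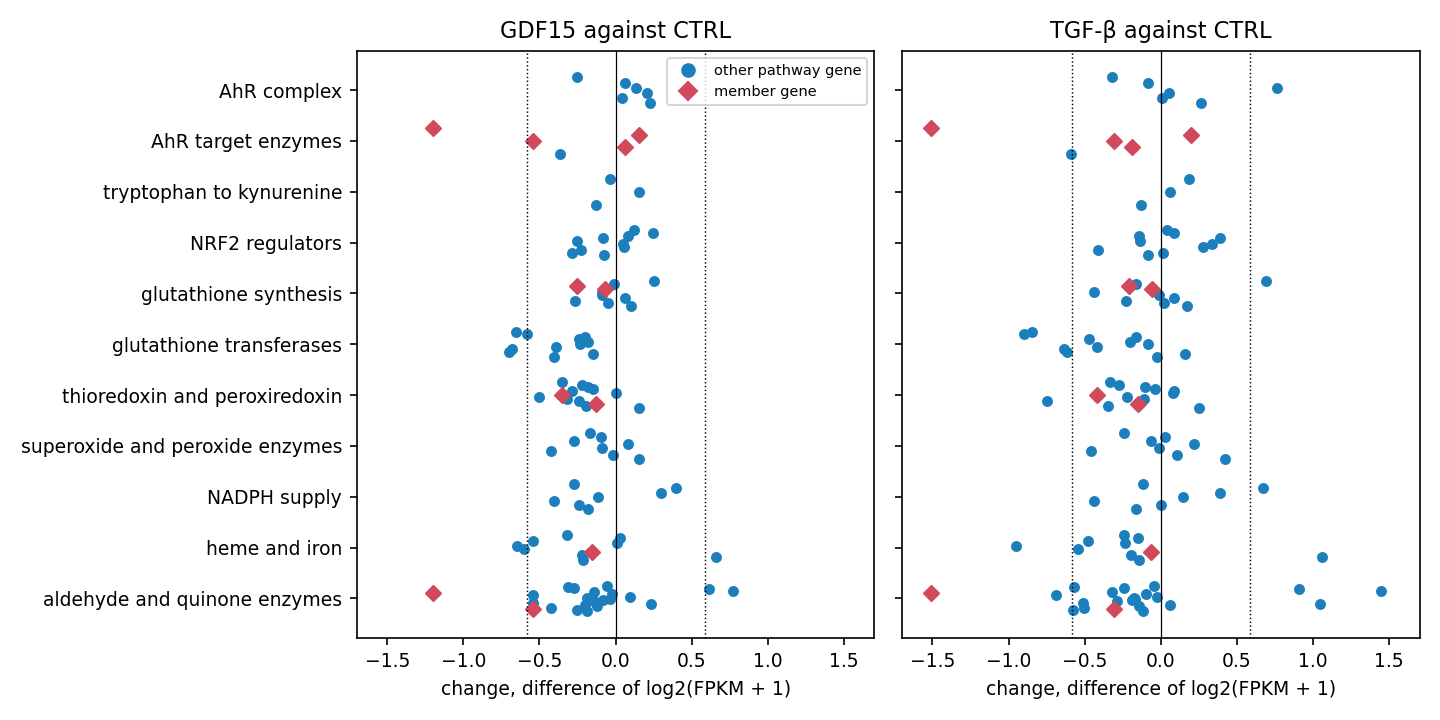
Change (difference of log2(FPKM + 1)) by GDF15 (left) and TGF-β (right) of every listed gene over the minimum FPKM, by list. Red diamonds are genes of the set of 10 (*Ahr* is below the minimum and not drawn), blue circles are other genes, and dotted lines mark 1.5-fold. *Aldh3a1* lies left of all other points in both panels, and the glutathione transferases lie left of 0 in the GDF15 panel.

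Over all 11 lists without the 10 genes, 94 of the 128 genes found were over the minimum. With GDF15, 5 of the 94 (5.32%) were lower and 3 (3.19%) higher by more than 1.5-fold, beside 1.55% and 1.27% of the background. With TGF-β, 8 (8.51%) were lower and 7 (7.45%) higher, beside 3.06% and 2.54%. With *Gstp1* and *Gstp2* as 1 gene, 4 and 7 were lower, and without *Arnt2*, which reached the minimum only through TGF-β, 6 were higher with TGF-β. The median change of the 94 was -0.15 and -0.12. The median length of their transcripts is 2296 bases and that of the background 3139 bases. After removal of the length trend, 0 of the 94 were lower and 3 higher with GDF15, 4 were lower and 7 higher with TGF-β, and the medians were -0.06 and -0.01. Of the 9192 background rows with a length, 0.468% were then lower and 1.22% higher with GDF15, and 2.02% lower and 3.15% higher with TGF-β.

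**Figure D5:**
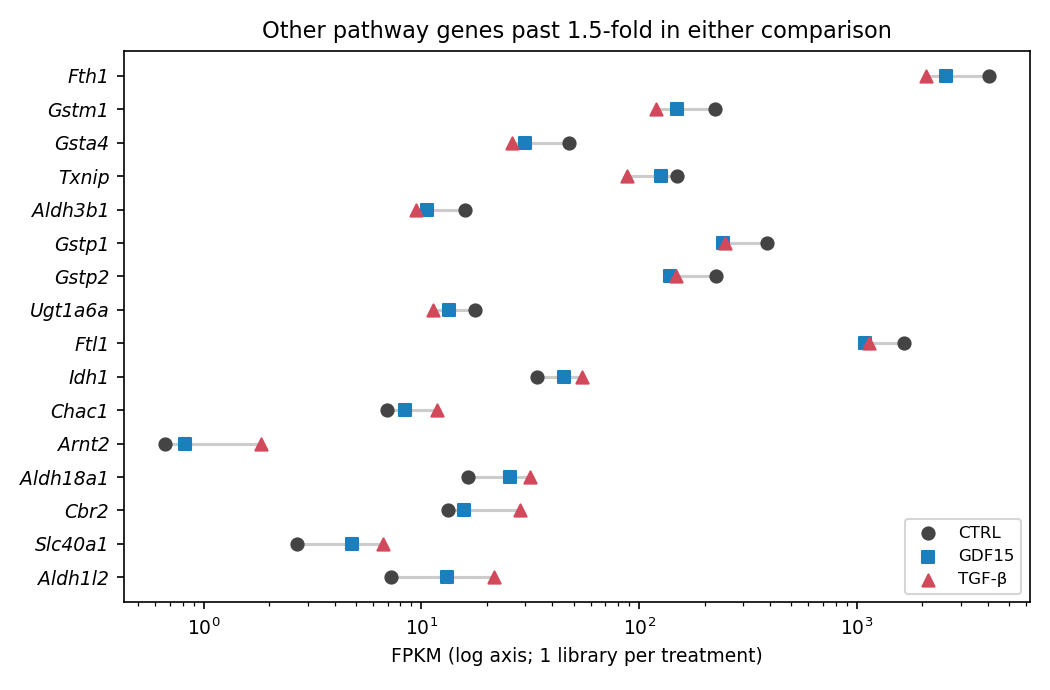
FPKM (log axis) in the CTRL, GDF15 and TGF-β libraries of the 16 other pathway genes named here that passed 1.5-fold in either comparison, ordered by the change with TGF-β. The upper 9 genes, *Fth1* to *Ftl1*, were highest in CTRL, and the lower 7, *Idh1* to *Aldh1l2*, were lowest in CTRL, with GDF15 between CTRL and TGF-β for all of these 7. The genes were picked by their difference from this same CTRL library, so its place at an end is largely fixed. One of the 7, *Arnt2*, reached the minimum only through TGF-β.

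Between the stimulated libraries themselves, none of the 10 genes differed by more than 1.5-fold, against 1.54% of the background rows. The largest difference was again that of *Aldh3a1*, at -0.31 for TGF-β less GDF15 (ratio 0.804, interval 0.753 to 0.857). On the log2(FPKM + 1) scale *Tiparp* followed at -0.25 (ratio 0.830, interval 0.765 to 0.901) and *Nqo1* at 0.23, in the opposite direction. By ratio *Ahr* (0.839) was further from 1 than *Nqo1* (1.18), and without the length trend *Nqo1* (0.21) came before *Tiparp* (-0.19). The ratios of *Ahr*, *Cyp1b1*, *Hmox1*, *Gclc*, *Gclm*, *Txnrd1* and *Srxn1* did not differ from 1 beyond counting error, and this does not show that the stimuli act alike on them. The order of the genes by level was almost the same in each library. From high to low it was *Aldh3a1*, *Txnrd1*, *Srxn1*, *Hmox1*, *Gclm*, *Nqo1*, *Tiparp*, *Gclc*, *Cyp1b1* and *Ahr* in CTRL. In the stimulated libraries only the neighbours *Srxn1* and *Hmox1* changed places. Without replicates, no neighbours in this order can be set apart beyond the spread between samples.

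The 5 rows nearest to *Aldh3a1* in their pair of changes, by Euclidean distance over both comparisons, were *Spon2* (distance 0.26), *Klk8* (0.27), *Sparcl1* (0.28), *Tslp* (0.30) and *Ngef* (0.34). The nearest, the matrix protein gene *Spon2*, was at 69.3 FPKM for CTRL, 35.2 after GDF15 and 25.2 after TGF-β. *Sparcl1*, another matrix protein gene, was at 28.1, 13.6 and 7.94. Likeness over 3 libraries with a shared CTRL rests on 2 differences only and is given as a description.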

How the data were processed

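The authors prepared stranded mRNA libraries, read them in single-end mode and calculated with Cufflinks the deposited FPKM (fragments scaled to the length of the exon model in kilobases and to 1e6 mapped fragments), keeping coding genes that UniProt had reviewed. The submitters' processing notes name TopHat 1.3.2, Bowtie 0.12.9, Cufflinks 2.0.2 and mm10. The annotation and the use of strand in counting are not given in the sources used here. Columns were matched to samples by the treatment in their names, since the cell line part of the names counts upward from column to column.

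The 10 genes, the 11 pathway lists, the 5 marker lists and the thresholds were chosen with earlier results of these data known. Named were the 10 genes, listed regulators of AhR and NRF2, *Cyp1a1* and *Cyp1a2*, markers, the most abundant gene of each list and at most 4 genes per list past 1.5-fold, and the 5 rows nearest to *Aldh3a1*. One gene that this rule names is not reported here.

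Changes are differences of log2(FPKM + 1), with no test, because each treatment has 1 library. Length, GC content and coordinates are from GENCODE M21 (GRCm38, the assembly that mm10 names), matched for 15463 rows, 14713 by symbol and 750 by an older RefSeq symbol. Running medians and local spreads (scaled median absolute deviations) cover 501 rows. Fragments are FPKM times length of the longest coding transcript times the estimated depth, and are uncertain for genes with several transcripts. Alternatives were other pseudocounts (0.5, 0.1, none), no filter, upper quartile scaling and removal of trends with expression, length, and length with GC content. Scripts were tested on simulated data. Calculations were made in Python 3.11.15 with pandas 2.3.3, numpy 2.4.6 and scipy 1.17.1, and plots with matplotlib 3.10.9.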

Additional observations from a re-analysis of the deposited data

How the results depend on the processing

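No paired analysis was possible because a single pooled library stands for each treatment, so leaving one out was not possible either. Under the 8 alternatives, the counts of the 10 genes higher by more than 1.5-fold and lower by more than 2-fold and their median changes stayed as given or moved by less than the local spread. The count lower by more than 1.5-fold was 2 in place of 1 without a pseudocount for GDF15, and for TGF-β at a pseudocount of 0.1 and without a pseudocount, since *Ahr*, whose FPKM is below 1, then passed. The filter does not enter the change of a gene, so the values without it, which are among those counted next, could not move. Of 160 changes of the 10 genes under the alternatives, 156 moved by less than the local spread of genes of similar expression, and 4 moved by more. That of *Aldh3a1*, the only one past 1.5-fold, kept its sign, while 8 values of 4 small changes took the other sign (*Tiparp* by GDF15, *Hmox1* by both and *Gclm* by TGF-β).

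The counts over the other pathway genes, a summary chosen after seeing the data, depended on trends. Lower by more than 1.5-fold with GDF15 were 5 genes, 1 after removal of the expression trend, 0 after removal of the length trend and 0 after removal of the length and GC trends. With TGF-β they were 8 genes, 5 with upper quartile scaling, 5 without the expression trend, 4 without the length trend and 5 without the length and GC trends. The cause was not tested. Counting *Gstp1* and *Gstp2* as 1 gene, or asking for an FPKM of at least 1 in CTRL, both chosen after seeing the data, moved each count by at most 1.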
